A study of Mus musculus with 12 samples.

Results

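The genes described here are Nfe2l2, which encodes the transcription factor NRF2, and 9 genes of antioxidant defence, namely Hmox1, Nqo1, Gclc, Gclm, Txnrd1, Srxn1, Sod1, Sod2, and Cat. They were taken by symbol, each symbol was matched to 1 gene identifier, and all 10 of the 54119 genes summed from the transcript files were found and passed the filter on low counts, which left 19150 genes for testing. RNA was measured in cerebral vessels of wild type C57BL6 mice, 2 to 3 months old, after PBS or after LPS at 10 mg/kg given intraperitoneally 15 min, 30 min, or 4 h before. LPS is the outer membrane endotoxin of gram-negative bacteria. Each group had 3 libraries, and each library was 1 pool of vessels from 1 male and 1 female mouse, so sex and single animals cannot be told apart. The vessels came from the perfused forebrain by homogenisation, a dextran gradient, and a mesh, which keeps capillaries with their pericytes and the ends of astrocytes along with the larger vessels. The 3 PBS libraries served as the control for every time point, so the 3 comparisons with PBS share them.

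NRF2 is held in the cytoplasm by KEAP1, which passes it to a ubiquitin ligase for breakdown. Oxidants and electrophiles disable KEAP1, and NRF2 then enters the nucleus, pairs with a small MAF protein, and binds the antioxidant response element in front of genes for heme breakdown, quinone reduction, glutathione synthesis, and the thioredoxin system. BACH1 competes for the same element. SOD1 and SOD2, in the cytosol and in mitochondria, turn superoxide into hydrogen peroxide, which catalase and the peroxidases remove. In the endothelium of the brain these genes are known for their part in protecting the barrier from oxidants.

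Of the 8 genes with a window in the RefSeq promoter table (GRCm38.p6), 4 held the core letters of the antioxidant response element, TGACNNNGC, within 250 bases before a start site, on either strand. These were Nfe2l2, Gclm, Sod1, and 1 of the 3 windows of Txnrd1. Across all 32851 promoter windows of the same length, 10.2% held it. The AP-1 letters TGANTCA were found in Srxn1 alone of the 8 genes, at 2 places, against 6.75% of all windows, and the kB motif of NF-kB was found in Sod2 alone, against 3.90% of all windows. Cat and Nqo1 held none of the 3 motifs in this window, and Hmox1 and Gclc were not in the table. The stretches from 250 to 31 bases before the start are shown for the genes with a match that rose after LPS and for Gclm, whose level did not pass the test, so that the letters can be read beside the values. Capitals mark the matched letters, on the strand of the gene.
Nfe2l2, chr2:75704694-75704913, minus strand: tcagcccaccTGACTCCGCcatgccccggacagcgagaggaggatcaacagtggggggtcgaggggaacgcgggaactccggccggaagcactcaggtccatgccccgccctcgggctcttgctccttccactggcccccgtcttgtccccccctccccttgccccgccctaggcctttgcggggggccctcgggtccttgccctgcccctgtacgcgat
Txnrd1, chr10:82858956-82859175, plus strand: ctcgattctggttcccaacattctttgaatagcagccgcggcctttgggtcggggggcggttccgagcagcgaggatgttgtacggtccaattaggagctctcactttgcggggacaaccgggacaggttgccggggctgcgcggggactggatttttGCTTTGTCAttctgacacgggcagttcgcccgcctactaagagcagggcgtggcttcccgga
Srxn1, chr2:152105274-152105493, plus strand: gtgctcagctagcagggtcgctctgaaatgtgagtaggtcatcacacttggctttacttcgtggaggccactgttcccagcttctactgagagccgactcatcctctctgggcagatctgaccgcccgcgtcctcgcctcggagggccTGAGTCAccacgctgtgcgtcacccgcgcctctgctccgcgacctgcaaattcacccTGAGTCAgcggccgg
Sod2, chr17:13007589-13007808, plus strand: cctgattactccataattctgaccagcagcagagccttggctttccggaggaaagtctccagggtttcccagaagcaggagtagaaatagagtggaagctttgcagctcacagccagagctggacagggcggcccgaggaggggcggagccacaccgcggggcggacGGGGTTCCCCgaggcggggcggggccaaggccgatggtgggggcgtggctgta
Gclm, chr3:122245307-122245526, plus strand: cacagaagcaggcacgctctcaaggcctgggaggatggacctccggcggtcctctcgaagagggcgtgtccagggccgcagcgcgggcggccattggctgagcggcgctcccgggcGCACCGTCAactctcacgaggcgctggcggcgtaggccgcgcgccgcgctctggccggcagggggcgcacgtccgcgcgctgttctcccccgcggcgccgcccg
In Nfe2l2 the match, TGACTCCGC, began 240 bases before the start, and in Txnrd1 it lay on the opposite strand 92 bases before the start. Srxn1 carried TGAGTCA at 102 and 45 bases before the start, and Sod2 carried GGGGTTCCCC at 83 bases before the start. The Srxn1 match at 45 bases is followed by GC. The resulting TGAGTCAGC was not counted as an antioxidant response element, since the search letters TGACNNNGC hold C where it holds G. In Gclm the match lay on the opposite strand 134 bases before the start. The match of Sod1, TGACCACGC, lay on the opposite strand 56 bases before the start, and its stretch is not shown. Of the 4 genes with this element, Nfe2l2 and Txnrd1 were called higher at 4 h, and Gclm and Sod1 were not. These matches describe the letters and no binding was measured.

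The libraries held 18309177 to 25882028 fragments assigned to transcripts, and no gene of the 10 had under 158 fragments in any library. Levels are given in CPM, the fragments of a gene scaled to 1 common library total, after TMM scaling, which is a scaling that sets the bulk of genes level between libraries. It matters here, because at 4 h the median of all tested genes stood 0.70 higher on the log2 scale under TMM than under scaling by library size alone, against 0.17 at 30 min and 0.02 at 15 min. A gene was called when edgeR found a change beyond 1.5-fold at an adjusted p below 0.05 over all 19150 genes. Libraries of a group lay close together, with a common biological coefficient of variation of 0.0524, and since nothing in the labels describes separate vessel preparations beyond the pools, p-values measure the spread between these libraries, part of which may be technical. Pooled RNA also cannot tell fewer cells of a type from less RNA per cell.

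At 4 h after LPS, 6 of the 10 genes were called higher than in PBS and none was called lower. The 6 were Nfe2l2, Hmox1, Gclc, Txnrd1, Srxn1, and Sod2, and their changes ran from 1.75-fold to 14.9-fold. Among all tested genes 32.8% were called at this time, 19.0% higher and 13.8% lower. The median change of the 10 genes was 0.90 on the log2 scale, beside -0.01 for all tested genes. Under library size alone 5 of the 10 were called, where 54.6% of all genes were called, and these were Nfe2l2, Hmox1, Txnrd1, and Sod2 higher and Cat lower.

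At 15 min and at 30 min none of the 10 genes was called by edgeR, and none reached an unadjusted p below 0.05 against the 1.5-fold limit or was called by DESeq2 with the same limit. Across all genes 4.18% were called at 15 min and 4.58% at 30 min. Without the fold limit 5 of the 10 had an adjusted p below 0.05 at each of these times, where 38.6% and 36.9% of all genes did, and 9 of the 10 did at 4 h, where 68.5% of all genes did. The 3 LPS libraries lay wholly above or wholly below the 3 PBS libraries for 6 genes at 15 min, 5 at 30 min, and 9 at 4 h. The same was true of 49.3%, 46.7%, and 70.9% of all tested genes.

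**Figure D1:**
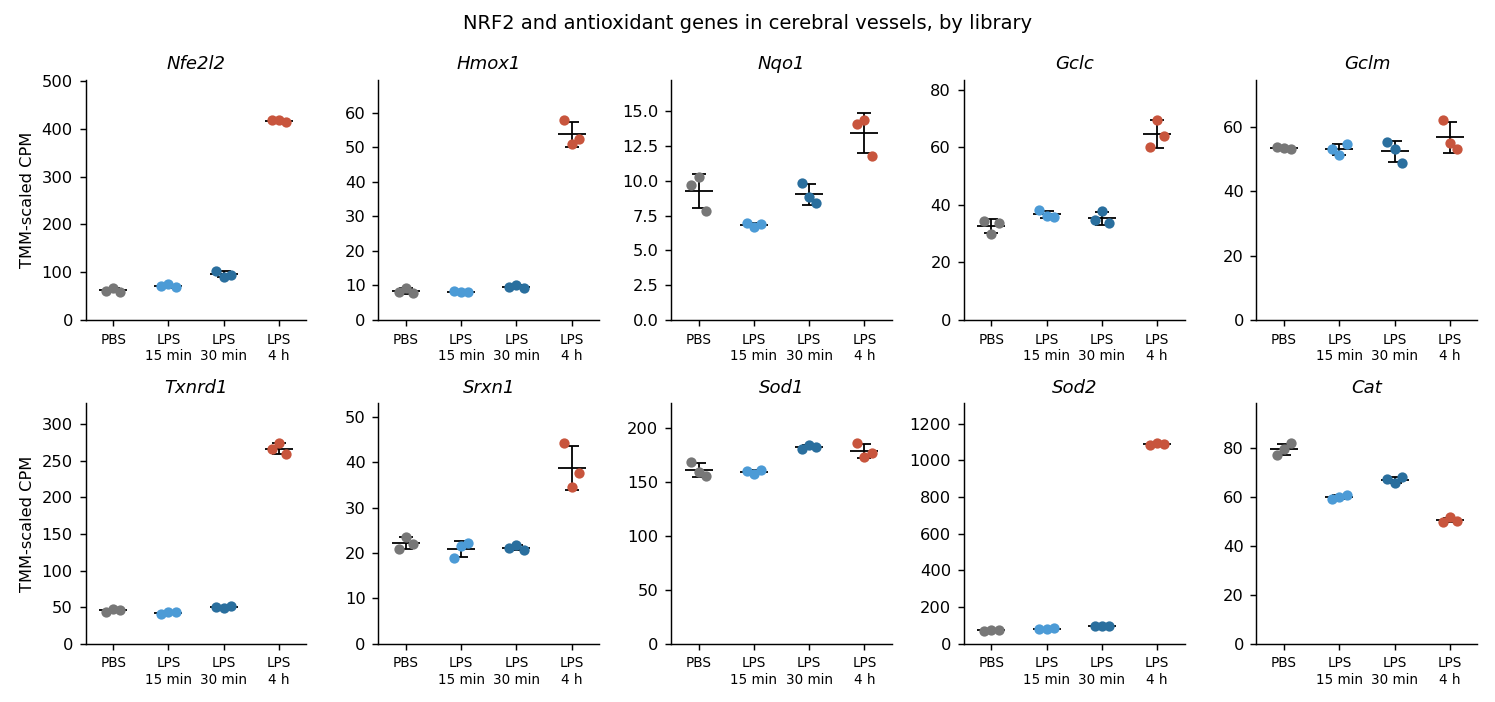
Level of each gene in TMM-scaled CPM (vertical axis, from 0) in the 3 libraries of each group (points), with the mean and SD of the group (bars). Sod2 stood near 1090 CPM in the 3 libraries at 4 h and below 100 CPM in every other library, while Gclm stayed between 48.9 and 62.2 CPM in all 12.

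Nfe2l2 (chr2:75675513-75704641, minus strand), the gene of the pathway's transcription factor, measured 60.4, 67.2, and 59.7 CPM in PBS. At 15 min it measured 70.3, 74.6, and 68.6 CPM, and at 30 min 102.8, 90.1, and 94.9 CPM. By 4 h it had reached 418.7, 419.1, and 413.7 CPM. Every LPS library lay above every PBS library, and the 3 LPS groups did not overlap one another. The log2 change against PBS was 0.19 ± 0.05 (SE, n = 3 per group) at 15 min and 0.62 ± 0.05 at 30 min, neither called, and 2.74 ± 0.05 at 4 h, a 6.67-fold rise (edgeR adjusted p = 1.5e-22). The rise held in all 22 alternative analyses, with a log2 change of 2.03 to 2.79. Nfe2l2 had 2 quantified transcripts, and Nfe2l2-201 took 96.4% to 99.1% of its fragments.

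Hmox1 (chr8:75093621-75100589, plus strand) encodes heme oxygenase 1, the inducible enzyme that opens heme to biliverdin, carbon monoxide, and iron. Its level was 8.20, 9.28, and 7.79 CPM in PBS, 8.27, 8.16, and 8.15 CPM at 15 min, and 9.58, 10.1, and 9.25 CPM at 30 min. Both early groups overlapped PBS, with log2 differences of -0.04 ± 0.09 and 0.19 ± 0.09 that were not called. At 4 h the libraries measured 58.0, 51.0, and 52.3 CPM, all above every other library. The rise was 6.36-fold, a log2 change of 2.67 ± 0.08 (edgeR adjusted p = 4.6e-17). The 7 erythroid marker genes, mostly globins, summed to 2318 to 2493 CPM in PBS and to 6948 to 7317 CPM at 4 h, with all 7 called higher. They were also higher in the early groups. Their sum was 3478 to 3619 CPM at 15 min, with 2 called higher, and 4439 to 4665 CPM at 30 min, with 4 called higher. Their part in the change of Hmox1 was not tested.

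Nqo1 (chr8:107388225-107403206, minus strand) encodes the quinone reductase often used as a readout of NRF2. It measured 9.67, 10.3, and 7.86 CPM in PBS and 6.99, 6.71, and 6.87 CPM at 15 min, so that the groups did not overlap. At 30 min it measured 9.84, 8.82, and 8.40 CPM, within the PBS range. The 4 h libraries, at 14.1, 14.4, and 11.8 CPM, all lay above PBS. Neither the log2 difference of -0.43 ± 0.12 at 15 min nor that of 0.53 ± 0.12 at 4 h was called (edgeR adjusted p = 1 and 0.73), and the value at 4 h was -0.17 under library size alone.

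Gclc and Gclm encode the catalytic and the modifier subunit of glutamate-cysteine ligase, the rate-limiting enzyme of glutathione synthesis. Gclc (chr9:77754535-77794485, plus strand) measured 34.3, 29.8, and 33.6 CPM in PBS, and 60.1, 69.6, and 64.1 CPM at 4 h. It rose 1.99-fold at 4 h, a log2 change of 0.99 ± 0.06 (edgeR adjusted p = 1.2e-06), with no overlap between the groups. That call was lost under library size alone, where the log2 change was 0.29. In the 2 early groups Gclc lay between 33.6 and 38.2 CPM.

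Gclm (chr3:122245557-122270732, plus strand) measured 53.7, 53.6, and 53.0 CPM in PBS and 62.2, 54.9, and 53.1 CPM at 4 h, and the groups overlapped. Its log2 difference at 4 h was 0.08 ± 0.06 (edgeR adjusted p = 1) and turned to -0.62 under library size alone. Its fragments were spread over 7 transcripts, of which Gclm-201 took 60.1% to 79.6%, and with the transcript lengths taken into account the log2 difference at 15 min was 0.35, not called, where the summed fragments gave -0.01. An antisense gene, Gm17494, overlaps Gclm at a mean of 6.48 to 8.95 CPM in the 4 groups, and the library kit does not mark strand, so reads of the overlap cannot be told apart.

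A ratio within a library does not depend on how libraries are scaled. The ratio of Gclc to Gclm stood at 0.64, 0.56, and 0.63 for PBS and reached 0.97, 1.27, and 1.21 at 4 h, a 1.88-fold higher mean. The groups did not overlap, and the two-sided exact permutation p was 0.1, the smallest that 3 libraries against 3 allow, so that none of the 12 tests made on 4 ratios could pass 0.05 before or after adjustment. At 15 min the ratio lay between 0.66 and 0.72 and at 30 min between 0.63 and 0.71.

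Txnrd1 (chr10:82833951-82897712, plus strand) encodes cytosolic thioredoxin reductase, which returns thioredoxin to its reduced form with NADPH. In PBS it measured 43.9, 47.8, and 45.5 CPM. It was 41.2, 42.8, and 43.5 CPM at 15 min, all below PBS, and 50.6, 49.2, and 52.0 CPM at 30 min, all above PBS, and neither difference was called. At 4 h it measured 266.3, 273.5, and 259.1 CPM, a 5.82-fold rise with a log2 change of 2.54 ± 0.04 (edgeR adjusted p = 7.6e-23). All 22 alternatives kept the call, at log2 changes of 1.84 to 2.59.

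Among the Txnrd1 transcripts, Txnrd1-201 took most fragments, 71.7% to 74.7% in PBS and 64.0% to 76.1% at 4 h. Txnrd1-208 went from 4.63 ± 1.27 CPM (SD, n = 3) in PBS to 43.8 ± 3.72 CPM at 4 h, and its share of the gene's fragments from between 7.42% and 12.4% to between 15.7% and 17.5%. Salmon divides fragments that several transcripts share by a model, and Txnrd1-206 ran from 0% to 30.6% among the 3 libraries at 30 min, so shares of single transcripts of this gene carry a wide error.

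Srxn1 (chr2:152105516-152111376, plus strand) encodes sulfiredoxin, which repairs peroxiredoxins that peroxide has overoxidised. It measured 20.9, 23.6, and 21.95 CPM in PBS, lay between 18.9 and 22.1 CPM in the early groups, and measured 44.2, 34.5, and 37.7 CPM at 4 h. All 4 h libraries lay above PBS, and the 1.75-fold rise was called (log2 change 0.80 ± 0.08, edgeR adjusted p = 0.0063). This call was the least firm of the 6: it was lost in 6 of the 22 alternatives, among them DESeq2 (adjusted p = 0.052), the transcript length offset (adjusted p = 0.26), and leaving out replicate 1 of LPS 4 h (adjusted p = 0.074). Txnrd1 rose by more than Srxn1. Their ratio within a library was 2.10, 2.03, and 2.07 in PBS and 6.03, 7.93, and 6.87 at 4 h (two-sided exact permutation p = 0.1, the smallest possible).

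Sod2 (chr17:13006846-13040063, plus strand), the gene of the manganese superoxide dismutase of mitochondria, moved furthest of the 10 genes. It measured 70.2, 75.0, and 73.7 CPM in PBS, 81.2, 79.5, and 84.7 CPM at 15 min, and 95.9, 98.3, and 95.6 CPM at 30 min. The 3 groups lay in that order without overlap, but neither early log2 difference (0.16 ± 0.03 and 0.40 ± 0.03) was called. At 4 h the libraries measured 1083, 1092, and 1088 CPM, 14.9-fold above PBS with a log2 change of 3.90 ± 0.03 (edgeR adjusted p = 2.2e-29). All 22 alternatives kept the call. With transcript lengths taken into account the log2 change was 4.53, and under library size alone it was 3.19.

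Shares of the Sod2 transcripts are given as a description, since they were not tested and Salmon divides shared fragments by a model. Sod2-201, the coding transcript of full length, took 56.7% to 59.1% of the gene's fragments in PBS and 47.8% to 49.8% at 4 h, while its own level went from 42.5 ± 1.58 CPM (SD, n = 3) to 534.1 ± 14.2 CPM. Sod2-207, annotated as a processed transcript, went from 9.97 ± 0.40 CPM to 277.5 ± 5.70 CPM, and its share from 13.6% to 13.7% up to 24.9% to 25.9%. Sod2-204, annotated with a retained intron, went from 6.60 ± 0.81 CPM to 176.4 ± 9.59 CPM. Sod2-202, annotated for nonsense-mediated decay, took 18.8% ± 1.94 of fragments in PBS, 32.4% ± 2.75 at 15 min, and 8.80% ± 0.13 at 4 h. The mean effective length of the gene was 1783 bases in PBS and 1121 bases at 4 h.

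**Figure D2:**
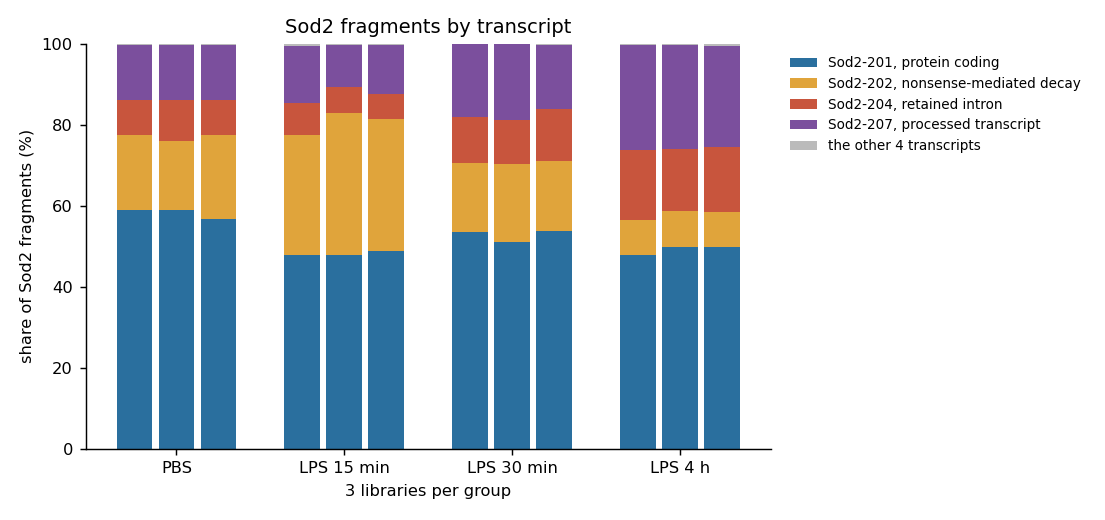
Share of the Sod2 fragments (vertical axis, percent) that Salmon gave to each transcript in the 12 libraries (bars, 3 per group). Sod2-201 held 56.7% to 59.1% in PBS and 47.8% to 49.8% at 4 h, and Sod2-207 held 24.9% to 25.9% at 4 h.

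Sod1 (chr16:90220754-90226329, plus strand), the gene of the cytosolic copper and zinc enzyme, measured 167.9, 159.1, and 155.6 CPM in PBS and 185.4, 172.9, and 176.7 CPM at 4 h. Its log2 difference was 0.15 ± 0.03 at 4 h and 0.18 ± 0.03 at 30 min, not called, and -0.56 at 4 h under library size alone. The ratio of Sod2 to Sod1 was 0.42, 0.47, and 0.47 in PBS, 0.51 to 0.53 at 15 min, 0.52 to 0.53 at 30 min, and 5.84, 6.32, and 6.16 at 4 h. Its mean was 13.4-fold higher at 4 h than in PBS, with no overlap (two-sided exact permutation p = 0.1, the smallest possible). Sod1 overlaps the opposite-strand gene Scaf4, at means of 43.4 to 53.8 CPM, so reads of the overlap cannot be told apart.

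Cat (chr2:103453849-103485160, minus strand), the gene of catalase, was the only gene of the 10 whose level was below PBS in every LPS library. It measured 77.2, 79.4, and 81.8 CPM in PBS, 59.1, 60.0, and 60.8 CPM at 15 min, 67.1, 65.8, and 68.2 CPM at 30 min, and 49.9, 51.6, and 50.1 CPM at 4 h. The log2 differences were -0.41 ± 0.04, -0.25 ± 0.04, and -0.65 ± 0.04, and that at 4 h just missed the threshold (edgeR adjusted p = 0.058). It was called in 7 of the 22 alternatives, among them library size alone (log2 -1.36) and leaving out replicate 1 of PBS (adjusted p = 0.029) or replicate 2 of LPS 4 h (adjusted p = 0.048). The ratio of Sod2 to Cat was 0.91, 0.95, and 0.90 in PBS, 1.33 to 1.39 at 15 min, 1.40 to 1.49 at 30 min, and 21.7, 21.2, and 21.7 at 4 h. The mean ratio was 23.4-fold higher at 4 h than in PBS (two-sided exact permutation p = 0.1, the smallest possible).

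**Figure D3:**
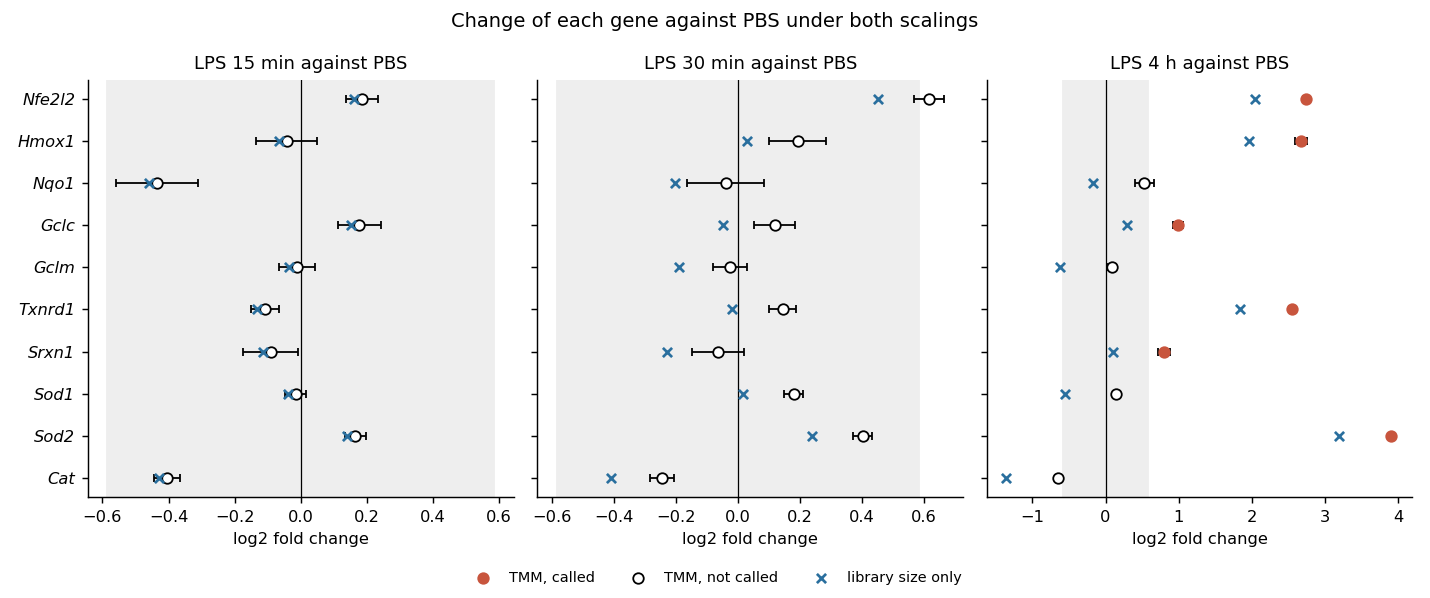
Log2 fold change against PBS (horizontal axis) at the 3 times under TMM scaling (circles, filled where called, bars are SE) and under library size alone (crosses), with changes within 1.5-fold shaded. At 4 h Gclc and Srxn1 are called under TMM only, and Nqo1, Gclm, and Sod1 lie above 0 under TMM and below 0 under library size alone.

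**Figure D4:**
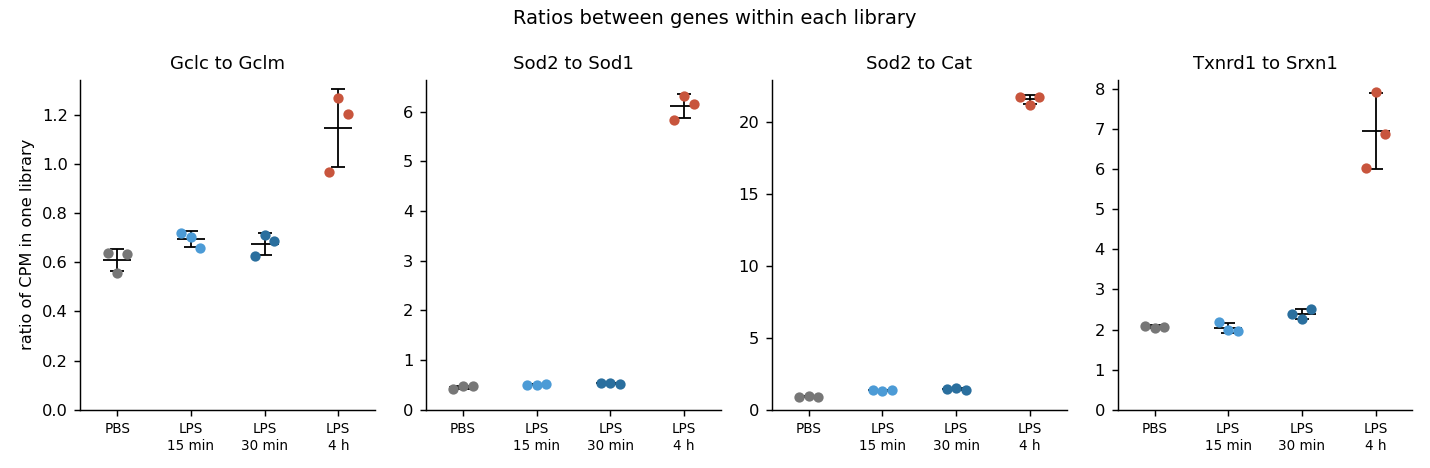
Ratio of the CPM of 2 genes within each library (vertical axes, from 0) in the 4 groups (points), with mean and SD. The Sod2 to Sod1 ratio stood between 5.84 and 6.32 at 4 h and at most at 0.53 in the other groups.

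The step between the later times held most of the change. From 30 min to 4 h the same 6 genes were called higher, where 28.6% of all genes were called, with log2 changes of 2.12 for Nfe2l2, 2.48 for Hmox1, 0.87 for Gclc, 2.40 for Txnrd1, 0.87 for Srxn1, and 3.49 for Sod2. From 15 to 30 min edgeR and DESeq2 called none of the 10, none had an unadjusted p below 0.05 against the 1.5-fold limit, and 4.65% of all genes were called. The step of Nfe2l2 was 0.43 ± 0.05 and that of Sod2 0.24 ± 0.03, or 0.63 for Sod2 with transcript lengths taken into account, not called.

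In TPM, a level that takes transcript length into account, Sod1 led the 10 genes in PBS at 591.9 ± 23.8 (SD, n = 3). Sod2 followed at 62.4 ± 3.92, then Cat at 51.8 ± 0.89, Nfe2l2 at 44.7 ± 3.23, and Gclm at 42.1 ± 7.69. Below them came Txnrd1 at 24.1 ± 1.23, Srxn1 at 16.2 ± 2.37, Gclc at 16.1 ± 1.19, Nqo1 at 11.2 ± 1.59, and Hmox1 at 9.77 ± 0.89. The libraries of Nfe2l2 and Gclm, of Srxn1 and Gclc, and of Nqo1 and Hmox1 overlapped, so these neighbours were not separated in order. At 4 h Sod2 led at 783.8 ± 23.5 TPM, ahead of Sod1 at 349.6 ± 12.4, Nfe2l2 at 159.0 ± 3.00, Txnrd1 at 78.8 ± 2.92, and Hmox1 at 33.8 ± 2.17. Most of the Sod2 value at 4 h came from Sod2-204 (retained intron, 395.8 TPM) and Sod2-207 (processed transcript, 263.3 TPM). The coding Sod2-201 had a mean of 78.8 TPM at 4 h, below the coding Sod1-201 at 344.0 TPM. In PBS these 2 transcripts stood at 11.7 and 584.1 TPM. The places of Sod2 thus hold for the gene sum and not for its coding transcript. Hmox1 thus held the fifth place at 4 h, and Nqo1, at 8.70 ± 0.97 TPM, was the lowest at 4 h. TPM adds to a fixed total in each library, so a TPM is read here within a group and not between groups.

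Genes around the pathway were read from 8 lists holding 117 genes, 113 of them tested. At 15 min 2 of the 113 were called, both higher, and at 30 min 8 were called, 7 higher and 1 lower. At 4 h 50 were called, 30 higher and 20 lower, where 19.0% of all tested genes were called higher and 13.8% lower. DESeq2 with the same fold limit called 42 at 4 h, 27 higher and 15 lower, and 5172 of all 19150 genes. Among all tested genes 3.31% were called higher and 0.872% lower at 15 min, and 3.78% and 0.799% at 30 min. The median log2 change of the 113 genes at 4 h was 0.04, beside -0.01 for all genes, and under library size alone 20 of the 113 were called higher and 52 lower, where 54.6% of all genes were called.

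Of the 16 genes that control NRF2, 5 were called higher and 1 lower at 4 h, with a median log2 change of 0.63 that became -0.07 under library size alone, where 3 were called higher and 5 lower. The partner Maff, a small MAF protein, was the only gene of this list called at 15 min. It stood at 16.1 CPM on average in PBS, 65.0 CPM at 15 min, 196.9 CPM at 30 min, and 430.4 CPM at 4 h, with log2 changes of 2.01 ± 0.04, 3.61 ± 0.04, and 4.74 ± 0.04 (edgeR adjusted p = 3.1e-18, 9.6e-26, and 5.3e-29). Of the other small MAF genes, at 15 min Mafk stood at 80.8 against 60.6 CPM in PBS (log2 0.42 ± 0.04) and Mafg at 142.8 against 94.5 CPM (log2 0.59), neither called. Mafk rose at 30 min (log2 0.91 ± 0.04) and at 4 h (3.02 ± 0.03). Mafg was called higher at 4 h as well, at 171.2 CPM (log2 0.86, edgeR adjusted p = 9.4e-08). Keap1 rose at 4 h from 70.5 to 111.9 CPM (log2 0.67, edgeR adjusted p = 0.021). The 3 called higher under library size alone were Maff, Mafk, and Bach1, so Mafg and Keap1 were not called higher there. The Keap1 change was smaller than the median shift of 0.70 between the scalings at 4 h. DESeq2 with the same fold limit called 4 of the list higher. Bach1, the competitor at the element, rose from 44.9 to 146.0 CPM at 4 h (log2 1.70 ± 0.05). Dpp3, whose product binds KEAP1, fell by 0.83 on the log2 scale at 4 h. Maff thus rose at a time when no gene of the 10 was called.

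Among 25 tested genes of the glutathione system, 8 were called higher and 7 lower at 4 h, with a median log2 change of 0.04 that became -0.66 under library size alone, where 6 were called higher and 12 lower. Slc7a11, the cystine carrier that feeds glutathione synthesis, rose from 87.8 to 538.6 CPM (log2 2.62 ± 0.03). Glrx, a glutaredoxin, rose by 2.59 ± 0.07, and Chac1, which degrades glutathione, rose from 2.02 to 15.0 CPM. Gpx1, the cytosolic glutathione peroxidase, was already higher at 30 min (388.1 against 138.0 CPM in PBS, log2 1.49 ± 0.03, edgeR adjusted p = 2.1e-18) and reached 574.0 CPM at 4 h. In the other direction Gpx7 went from 14.5 to 2.71 CPM and Gsta4, a glutathione transferase, from 75.7 to 30.1 CPM. The fall of Gsta4 came after early levels above PBS in every library (95.3 CPM at 15 min and 99.9 CPM at 30 min on average, not called).

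Of 18 genes of the thioredoxin and peroxiredoxin system, 4 were called higher and 1 lower at 4 h, with a median log2 change of 0.13 and of -0.57 under library size alone, where 2 were called higher and 7 lower. Txn1, the thioredoxin that Txnrd1 reduces, rose from 64.0 to 287.3 CPM (log2 2.17 ± 0.04), and Txnip, which binds and inhibits thioredoxin, from 266.2 to 1641 CPM (2.62 ± 0.02). Sesn2, a stress-induced sestrin, rose from 7.99 to 17.7 CPM, a call lost under library size alone. Msrb2, a mitochondrial methionine sulfoxide reductase, fell by 0.91 on the log2 scale.

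Of 11 tested genes of NADPH supply, 2 were called higher and 1 lower at 4 h, with a median log2 change of -0.09 and of -0.79 under library size alone, where 1 was called higher and 7 lower. Mthfd2, a mitochondrial folate enzyme, rose from 3.98 to 42.2 CPM. Me1, malic enzyme 1, rose by 0.76 ± 0.09, lost under library size alone, and Taldo1, of the pentose phosphate path, fell by 0.91 on the log2 scale. In a list of 6 genes of superoxide removal and metal supply, 2 were called higher and 2 lower, with a median log2 change of 0.01 and of -0.70 under library size alone, where 1 was called higher and 4 lower. Slc39a14, a carrier of zinc, manganese, and iron, rose from 19.2 to 127.3 CPM (log2 2.73 ± 0.07), and Slc25a37, the mitochondrial iron carrier, rose by 0.68 ± 0.06, but stood at -0.02 under library size alone. Ccs, the copper chaperone of SOD1, fell by 0.77 on the log2 scale, as did Atox1, another copper chaperone. Under DESeq2 with the same fold limit the calls of Slc25a37 (adjusted p = 0.35), Ccs (0.17), and Me1 (0.21) were lost.

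Heme and iron genes were called in both directions, 2 of 9 higher and 3 lower at 4 h, with a median log2 change of -0.17 and of -0.88 under library size alone, where none was called higher and 6 were called lower. Slc40a1, the iron exporter ferroportin, fell at 30 min and at 4 h. Its mean was 183.0 CPM in PBS, 126.1 CPM at 15 min, 99.0 CPM at 30 min, and 10.4 CPM at 4 h, with log2 changes of -0.89 ± 0.03 at 30 min and -4.13 ± 0.05 at 4 h (edgeR adjusted p = 3.7e-08 and 1.1e-25). Alas1, the first enzyme of heme synthesis, rose at all 3 times (log2 0.74 ± 0.03, 1.25 ± 0.03, and 0.92 ± 0.03), the last of these lost under library size alone. Fth1, the ferritin heavy chain, rose by 1.32 ± 0.03 at 4 h, with an adjusted p of 0.051 under library size alone, and Blvrb, a biliverdin reductase, fell by 0.86 on the log2 scale. Ferritin genes have many processed copies, so fragments of Fth1 may be divided among them.

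Of 14 tested drug-metabolizing targets of NRF2, 1 was called higher and 3 lower at 4 h, with a median log2 change of -0.23, or -0.17 with the 1 gene at 0 in a group set to no change, and of -0.94 under library size alone, where 1 was called higher and 8 lower. Abcc1, an exporter of glutathione conjugates, rose from 31.4 to 108.8 CPM (log2 1.79 ± 0.05), while Ephx1, epoxide hydrolase 1, and Cbr1, a carbonyl reductase, fell by 0.95 and 0.79 on the log2 scale, the latter not called by DESeq2 (adjusted p = 0.074). Cyp2a5 had 5, 8, and 5 fragments in the PBS libraries, 72, 55, and 75 at 30 min, and 0 in each library at 4 h. Its rise at 30 min was called (edgeR adjusted p = 5.3e-06). Since near-identical genes of its family can share its reads and the PBS counts lie near the floor of 3 counts, no fold is given for 4 h.

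Genes that make oxidants were called higher in 6 of 14 cases and lower in 2 at 4 h, with a median log2 change of 0.52 that became -0.18 under library size alone, where 6 were called higher and 3 lower. Xdh, xanthine oxidoreductase, rose at 30 min (322.6 against 186.3 CPM, log2 0.79 ± 0.03) and at 4 h (1069 CPM, 2.52 ± 0.03), and Ncf1, a subunit of the phagocyte NADPH oxidase, rose at 30 min (0.93 ± 0.14, edgeR adjusted p = 0.048) and at 4 h (2.75 ± 0.13). Under library size alone neither rise at 30 min was called, and that of Ncf1 was also lost in DESeq2 (adjusted p = 0.40) and on leaving out any 1 of 8 libraries, among them LPS 30 min replicate 3 (edgeR adjusted p = 0.28). Cybb, the membrane subunit of the same oxidase, rose by 3.61 ± 0.08 on the log2 scale to 85.6 CPM, and Rac2, its regulator in blood cells, by 3.09 ± 0.14 to 32.1 CPM at 4 h. Maoa, a monoamine oxidase, fell by 1.63 and Aox3, an aldehyde oxidase, by 2.42 on the log2 scale.

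**Figure D5:**
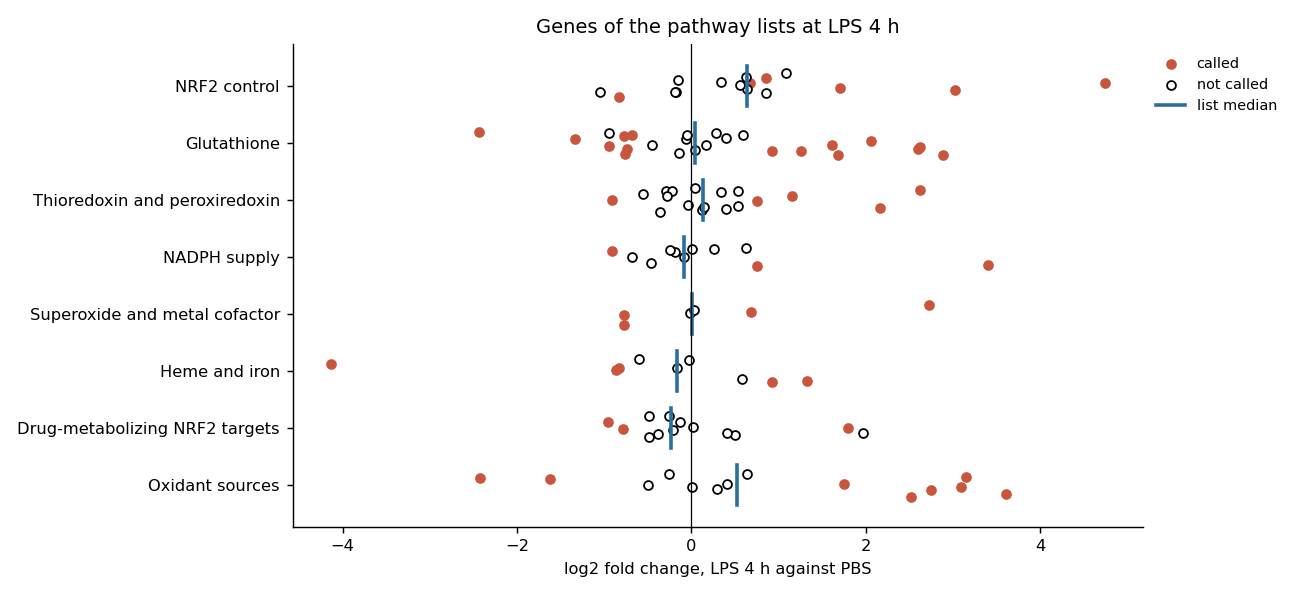
Log2 fold change at LPS 4 h against PBS (horizontal axis) of the tested genes of the 8 lists, filled where called, with the median of each list (vertical lines). Genes of each list lie on both sides of 0, from Slc40a1 at -4.13 to Maff at 4.74, and Cyp2a5, at 0 in all 4 h libraries, is left out of the points but counted as lowest in the median of its list.

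Genes of other cells moved at the same time. All 7 tested neutrophil markers of 10 were called higher at 4 h, and the summed level of the list went from 4.65 to 5.92 CPM in PBS up to 206.2 to 210.7 CPM. Ly6g, Elane, and Mpo were at 0 in all PBS libraries and had at most 9, 2, and 2 fragments in a library at 4 h. Of 5 monocyte markers 4 were called higher, with sums of 43.3 to 52.9 CPM in PBS and 182.2 to 188.3 CPM at 4 h, and of 5 markers of perivascular macrophages 3 were called higher, with sums of 111.5 to 118.6 and 177.8 to 182.8 CPM. Microglial markers summed to 158.9 to 164.2 CPM in PBS and to 97.2 to 103.3 CPM at 4 h, with 4 of 8 called lower. Of 10 endothelial markers 7 were called lower and Cdh5 higher, and the sum went from between 12370 and 12670 CPM to between 7994 and 8037 CPM. Pericyte markers, with 1 of 7 called lower, summed to 3772 to 3849 CPM in PBS and 3500 to 3616 CPM at 4 h. At 15 min smooth muscle markers were lower (3 of 5 called, 1764 to 1797 against 2723 to 2751 CPM in PBS). Neuronal markers were higher at 15 min (2 of 6 called, 490.3 to 501.8 against 317.0 to 328.7 CPM). The astrocyte list had a lower sum at 15 min (1 of 6 called, 504.1 to 539.8 against 656.8 to 680.2 CPM). The called gene was Gfap, at a mean of 77.95 against 179.2 CPM. Aldh1l1, Slc1a2, and Slc1a3 were lower without a call, while Aqp4 (8.18 against 2.91 CPM) and S100b (16.1 against 15.75 CPM) were not lower. Perivascular fibroblast markers were also lower then (1 of 5 called, 313.4 to 330.7 against 433.7 to 457.6 CPM). At 4 h astrocyte markers had 2 of 6 called higher, Gfap just inside the threshold (edgeR adjusted p = 0.04995) and Aqp4. Aqp4 varied widely within groups, from 21 to 146 fragments in PBS and from 86 to 397 at 4 h. Perivascular fibroblast markers had 2 of 5 called lower at 4 h. These markers moved with Sod2, Hmox1, Cybb, Ncf1, and Rac2 among others, and their part in those changes was not tested.

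The genes with the pattern most like that of Nfe2l2 were sought among 14578 tested genes by the root mean square difference of the 3 log2 changes against PBS. Nearest were Cdc42ep3 (difference 0.041), an effector of the small GTPase Cdc42, Spry4 (0.069), an inhibitor of receptor tyrosine kinase signalling, Txnip (0.069), and Resf1 (0.11). Cdc42ep3 stood at log2 differences of 0.20, 0.57, and 2.79 at the 3 times in turn. Of the other 9 genes described here the nearest were Hmox1 (0.28) and Txnrd1 (0.34), and the farthest was Cat (2.05).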

How the data were processed

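RNA-seq (SMART-Seq v4 and Nextera XT, a kit that does not mark strand) was done on 12 libraries of cerebral vessels in 4 groups of 3. Per the labels, transcripts were quantified with Salmon 1.2.1 against GRCm38.p6, and the authors deposited 1 file per library with estimated counts (expected counts per transcript), TPM, and effective lengths. A further table deposited by the authors holds DESeq2-normalised counts per gene, which are scaled signal values and not counts.

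Estimated counts were joined to genes by transcript identifier (139852 of 140948 transcripts joined; GENCODE M21), summed, and rounded. Fragments left out were 0.482% to 0.85% per library. Genes were kept with the default filterByExpr (count minimum 10), scaled by TMM, and fitted together over the 12 libraries with edgeR 4.0.16 (glmQLFit, then glmTreat at 1.5-fold), with Benjamini-Hochberg adjustment over 19150 genes, in R 4.3.3. The SE is the log2 change over the root of the quasi-likelihood F. The fit was tested on simulated data. Ratios were compared by exact permutation tests. Replicates of a group differed by more than counting error (mean chi-square per gene 2.55 to 8.23, with 1 for counting error alone). None was therefore counted as a copy of the reads of another library. The check cannot tell separate pools from repeat libraries of the same RNA. Alternatives were DESeq2 1.42.0, other scalings, no filter, no fold limit, a transcript length offset, limma 3.58.1 on the gene table with a pseudocount of 1 or 10, only the groups compared, a replicate block, and leaving out each library.

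The 10 genes, the pathway and marker lists, and the tests were chosen with earlier results of these data known. Of each pathway list the text names up to 3 higher and 2 lower called genes by the size of their change at 4 h (mean count of 50 or more). Up to 3 genes called at 15 or 30 min are named too. Mafg and Keap1 are named beyond this rule, and their values under the alternatives are not listed. The 4 genes most like Nfe2l2 were taken from genes with the same mean count. Coordinates are those of GENCODE for GRCm38; promoters are from RefSeq, and motifs were searched in Python on both strands.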

Additional observations from a re-analysis of the deposited data

Results flagged for a closer look

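For 6 genes the change after LPS differed between 30 min and 4 h by the test of that step itself (edgeR, LPS 4 h against LPS 30 min), with all 3 libraries at 4 h above all 3 at 30 min. The log2 differences were 2.12 for Nfe2l2, 2.48 for Hmox1, 0.87 for Gclc, 2.40 for Txnrd1, 0.87 for Srxn1, and 3.49 for Sod2. Gclc and Srxn1 were not called in this step under library size alone, and Srxn1 was also not called in limma on the gene table.

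Nqo1 lay below PBS in all 3 libraries at 15 min (log2 -0.43) and above PBS in all 3 libraries at 4 h (0.53). The difference between these times was not tested, neither value was called, and the value at 4 h was -0.17 under library size alone. Txnrd1 lay below PBS in all 3 libraries at 15 min (log2 -0.11) and above PBS in all 3 at 30 min (0.14) and at 4 h (2.54). Its step from 15 to 30 min, 0.25 ± 0.04, was not called, and the value at 30 min was -0.02 under library size alone.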

How the results depend on the processing

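Of 10 genes, 6 were called at 4 h against PBS. That count was 5 under DESeq2, library size alone, and limma with 1 or 10 added, 7 without the filter on low counts or with only the groups compared, and 9 without the fold limit, and it ran from 5 to 7 with 1 library left out. Without the fold limit the counts were also 5 at 15 min, 5 at 30 min, and 6 from 15 to 30 min against 0 with it, and for the pathway lists 57, 43, and 92 against 2, 8, and 50. Without that limit 38.6%, 36.9%, and 68.5% of all genes had an adjusted p below 0.05 at these 3 times. DESeq2 called 2, 7, and 42 of the pathway genes, and 573, 652, and 5172 of all 19150 genes. With 1 library left out the pathway counts were 2 to 3, 7 to 8, and 44 to 51. Over all genes 6273 were called at 4 h, 58.0% of them higher, and 10462 under library size alone, 18.2% of them higher. Of the DESeq2 calls at 4 h 61.6% were higher, and limma with 1 and 10 added called 5183 and 4902 genes.

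Libraries with the same replicate number were only weakly correlated (-0.049 to 0.068 over 18 pairs). Of 12 libraries 6 were nearest their own number, and the number expected without pairing was not computed. A replicate block changed none of the 50 results on the 10 genes, with pathway counts of 2, 7, and 50.

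Mafg and Keap1 aside, these directions turned, none of them in a result called under the alternative, and the cause was not tested. Under library size alone, log2 values at 4 h against PBS were -0.17 for Nqo1, -0.62 for Gclm, -0.56 for Sod1, and -0.020 for Slc25a37. At 30 min they were -0.046 for Gclc, -0.020 for Txnrd1, -0.088 for Dpp3, -0.069 for Mthfd2, -0.040 for Atox1, -0.15 for Ccs, and -0.089 for Blvrb. At 15 min Dpp3 was -0.010, from 15 to 30 min Srxn1 was -0.12, and from 30 min to 4 h Gclm was -0.43. Under the transcript length offset and limma with 1 and 10 added, in that order, Gclm was 0.35, 0.35, and 0.34 at 15 min, 0.23, 0.22, and 0.21 at 30 min, and -0.070, -0.058, and -0.057 from 30 min to 4 h, Srxn1 was -0.11, -0.11, and -0.10 from 15 to 30 min, and Aox3 was 0.24, 0.22, and 0.21 at 30 min. Sod2 at 15 min was -0.0057 and -0.0056 in limma, and Dpp3 at 15 min was -0.0053 in DESeq2 and -0.0057 with its size factors in edgeR.

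With 1 library left out, ranges crossing 0 were -0.094 to 0.036 (Hmox1), -0.032 to 0.013 (Gclm), -0.037 to 0.016 (Sod1), -0.023 to 0.053 (Dpp3), -0.00069 to 0.20 (Sesn2), -0.25 to 0.0095 (Mthfd2), -3.1e-06 to 0.077 (Atox1), and -0.027 to 0.076 (Blvrb) at 15 min. At 30 min they were -0.14 to 0.042 (Nqo1), -0.066 to 0.024 (Gclm), -0.40 to 0.099 (Chac1), -0.076 to 0.23 (Mthfd2), -0.027 to 0.072 (Ccs), and -0.11 to 0.080 (Aox3). From 15 to 30 min they were -0.056 to 0.032 (Gclm) and -0.047 to 0.070 (Srxn1).

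Among the named pathway genes other than Mafg and Keap1, leaving out 1 library ended some edgeR calls. These were Ccs at 4 h (PBS replicate 3 or LPS 4 h replicate 1, adjusted p = 0.067 and 0.11) and Me1 at 4 h (PBS replicate 1 or 2 or LPS 4 h replicate 3, 0.053 to 0.15). Slc25a37 at 4 h was lost too (PBS replicate 1 or 3, LPS 15 min replicate 1, or LPS 4 h replicate 2, 0.051 to 0.19), as was Ncf1 at 30 min (8 of the 12 libraries, 0.056 to 0.28). Xdh at 15 min became called (PBS replicate 3 or LPS 15 min replicate 3, 0.036 and 0.021).

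The 3 libraries per group limit the exact permutation tests to p = 0.1, and the lowest count among the 10 genes was 158 fragments in a library. Groups were pools of mice, PBS was shared by the comparisons, and read sharing with antisense genes and transcript division by Salmon remained unmeasured.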
